A study of Mus musculus with 24 samples.

Results

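The comparison described here is that of control-siRNA (si-CTL) CGR8 cells cultured with doxycycline against control-siRNA cells cultured without it. Its members were taken from the sample titles as the libraries named siControl_RESCUE and siControl_nores, 3 of each at day 0 and 3 of each at day 4, which gave 12 of the 24 libraries of the series. No measured value was used to choose them, although earlier results of these data were known. Within each day, the 3 libraries with doxycycline were compared with the 3 without, and both days were then set side by side. No control library is shared between the days.

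The study depleted RSL24D1 with siRNAs in CGR8 cells, a mouse embryonic stem cell (ESC) line, and added back an siRNA-resistant copy under a doxycycline-inducible promoter. RNA was taken from self-renewing ESCs (day 0, in serum and LIF) and after retinoic acid (RA) treatment at 10 nM for 4 days (day 4). The 12 libraries used here all received the non-targeting siRNA pool, so that endogenous Rsl24d1 was not targeted in any of them. The other 12 libraries, with si-Rsl24d1, entered the same fit and so its estimate of the spread, and their values are given only beside those of si-CTL cells.

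At day 0 the group without doxycycline carries the vector label empty_vector and the group with doxycycline the label RSL24D1_OE, and the day 4 groups are labelled in the same way. The study's methods describe 1 puromycin-selected piggyBac line, CGR8-RESCUE, cultured with or without doxycycline for both arms. Doxycycline itself, the ectopic mRNA and any difference in vector cannot be told apart with these libraries. The doxycycline effect named below is the difference between these groups, whatever its source. The sources differ on several points that no value here settles. The day 0 libraries are described as collected at 48 h in 1 label and at 72 h in another, the kit is named as poly-A selecting in the labels and as a total-RNA kit in the methods, and the medium of the RA-treated cells is given both with and without LIF.

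RSL24D1 is a placeholder protein of the large ribosomal subunit. It is loaded on nuclear pre-60S particles, and after export it is replaced in the cytoplasm by the ribosomal protein RPL24, to which it is related in sequence. Doxycycline is a tetracycline that is widely used to switch transgenes on, and it also binds the mitochondrial ribosome, which descends from a bacterial one, inhibits mitochondrial translation and chelates metal ions. For that reason the gene lists followed below cover ribosome production, the mitochondrial genome and the nuclear genes of the respiratory chain, stress responses and metal handling, beside pluripotency and differentiation.

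The deposited table gives log2(TPM + 1) for 54242 genes in each library. TPM is a length-normalised relative abundance that sums to 1000000 in every library, so the number of reads behind a value is unknown and a rise of some transcripts lowers all others. A gene was tested if its mean over the libraries reached 0.5 on this scale, which left 16447 genes. Every difference below is on the log2(TPM + 1) scale and understates the change of low genes. Pluripotency markers summed to 2680 to 2720 TPM at day 0 without doxycycline and to 1720 to 1830 TPM at day 4 without it, so the cells of day 4 retained these transcripts. Markers of RA response summed to 3.18 to 3.63 TPM and to 7 to 8.04 TPM in the same groups. The highest correlation between any pair of libraries was 0.9912 and no pair was identical. The labels number the replicates, and the study's legend for gene signatures from this RNA-seq calls them biological replicates. How their cultures were kept apart is not described. The p-values measure only the spread between these libraries, which may be in part technical.

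Rsl24d1 itself (chr9:73113426-73123333, GRCm38) was only slightly higher with doxycycline. At day 0 the log2 level was 7.22, 7.14 and 7.10 without doxycycline and 7.31, 7.24 and 7.21 with it. The groups overlapped, and the difference of 0.10 (SE 0.07, n = 3 against 3) did not pass the test (limma, adjusted p = 0.29). At day 4 the log2 level was 6.60, 6.67 and 6.61 without doxycycline and 6.99, 6.84 and 6.85 with it. Here the groups did not overlap and the difference was 0.27 (SE 0.07, adjusted p = 0.011). In TPM the group means were 141 and 151 at day 0 and 97.9 and 118 at day 4. The table holds 1 value per gene, so endogenous and ectopic mRNA cannot be told apart in it. In si-Rsl24d1 cells, where the endogenous mRNA was depleted, the log2 level was 1.55 higher with doxycycline at day 0 (adjusted p = 7.6e-11) and 0.45 higher at day 4 (adjusted p = 0.00032). The day 4 difference in si-CTL cells no longer passed without replicate 1 with doxycycline (0.22, adjusted p = 0.065) or with a median-of-ratios scaling (0.13, adjusted p = 0.054).

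**Figure D1:**
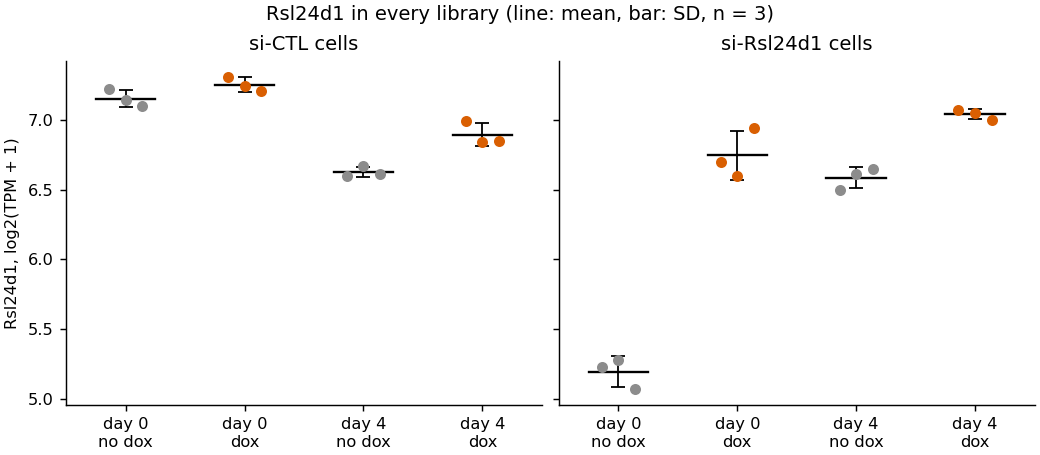
Log2(TPM + 1) of Rsl24d1 in each library of si-CTL cells (left) and si-Rsl24d1 cells (right) at day 0 and day 4, without (grey) and with doxycycline (orange); lines are means and bars the SD of 3 libraries. In si-CTL cells the groups overlap at day 0 and lie apart by 0.27 at day 4, whereas in si-Rsl24d1 cells they lie apart by 1.55 and 0.45.

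The direct partners of RSL24D1 showed small differences. Rpl24, whose protein takes its place, was 0.16 higher at day 0 and 0.16 lower at day 4, and neither difference passed (adjusted p = 0.068 and 0.072). Eif6, the anti-association factor of the pre-60S particle, fell by 0.13 at day 0 (adjusted p = 0.031) and differed by -0.02 at day 4 (adjusted p = 0.81), and the day 0 difference turned to 0.02 with a median-of-ratios scaling. Gtpbp4, the GTPase NOG1 that sits beside RSL24D1 on the particle, rose by 0.27 at day 4 (adjusted p = 0.0015) after -0.02 at day 0. Its longest annotated transcript has 8783 nt, which need not be the one expressed. Median deviations of genes of like length, and then of like GC content, were subtracted in each library. With this length and GC adjustment the day 4 difference of Gtpbp4 was -0.16 (adjusted p = 0.23).

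By the thresholds of the study (adjusted p below 0.01 and more than 1.8-fold), no gene differed with doxycycline at day 0 (limma, 0% of 16447). An unadjusted p below 0.05 was reached by 6739 genes. At adjusted p below 0.05 with no fold threshold, 201 genes were higher (1.22%) and 3892 lower (23.7%), with a median absolute difference of 0.265 among them. Only 20 of these genes exceeded 1.8-fold. For 41.8% of all tested genes the libraries with and without doxycycline did not overlap. The count at day 0 depended on single libraries and on the scaling. Without replicate 1 of the cells lacking doxycycline 1 gene passed, without replicate 2 of those with it 2 genes passed, and without replicate 3 of those with it none passed, while 4279 genes had an unadjusted p below 0.05. With a median-of-ratios scaling no gene passed either, and 4355 genes had an unadjusted p below 0.05. Each day 0 call below, list counts included, carries this limit.

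The genes that fell most at day 0 included long transcripts. Arhgap32, which encodes a GTPase-activating protein and has a longest transcript of 13568 nt, was measured at log2 levels of 4.15, 4.19 and 3.89 without doxycycline and 3.59, 3.48 and 3.27 with it. All libraries with doxycycline were lower, and the gene fell by 0.63 (adjusted p = 0.024). Nup214, a component of the nuclear pore, stood at 5.03, 5.03 and 5.18 without doxycycline and at 4.65, 4.46 and 4.41 with it. The groups again did not overlap and the fall was 0.57 (adjusted p = 0.024). Tbl1xr1, a subunit of the NCoR corepressor complex, fell by 0.61, the RNA-binding ubiquitin ligase gene Trim71 fell by 0.57 and Dab2ip fell by 0.59 (adjusted p = 0.025, 0.03 and 0.024).

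Rises at day 0 were fewer. Among protein-coding genes, Sec61g, the small gamma subunit of the endoplasmic reticulum translocon, stood at 6.32, 6.37 and 6.51 without and 6.60, 6.76 and 6.99 with doxycycline. Every library with doxycycline was above every one without, and the rise was 0.38 (adjusted p = 0.027). Syce3, a synaptonemal complex gene, rose by 0.40 and Acrbp by 0.42 (adjusted p = 0.024 and 0.028). Dpm1, which synthesises dolichol-phosphate mannose, rose by 0.53 (adjusted p = 0.04), and the neighbouring Adnp fell by 0.65 (adjusted p = 0.031). Both overlap Gm20716, a gene model chosen here after its values were seen that differed by -0.23, so reads of this region can be shared among the 3 models. At day 4 Dpm1 fell by 0.68 (adjusted p = 0.011) and Adnp was 0.35 higher (adjusted p = 0.2).

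At day 4, 9 genes met the thresholds of the study (0.0547%), 6 higher and 3 lower. At adjusted p below 0.05, 3629 genes were higher (22.1%) and 698 lower (4.24%), with a median absolute difference of 0.305. The libraries of both groups did not overlap for 46.6% of tested genes. The count at adjusted p below 0.05 depended most on 4 libraries, replicates 1 and 2 without doxycycline and replicates 1 and 3 with it. Without each of these 4 in turn it was 2529, 2372, 2077 and 2391, and 81.2% to 86.8% of the calls were higher. With a median-of-ratios scaling, 2046 genes were higher and 2097 lower in place of the 83.9% that were higher as deposited. That scaling moved the median of all tested genes from -0.12 to -0.01 at day 0 and from 0.09 to -0.01 at day 4. List medians below are to be read beside these medians. Day 4 list counts with that scaling are to be read beside its 2046 higher and 2097 lower of all 16447 tested genes. Those after length and GC adjustment are to be read beside 927 higher (5.64%) and 831 lower (5.05%).

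Several of the 9 genes are members of near-identical families. Gm10288 was listed at 6.67, 6.49 and 1.60 without doxycycline and at 0 in all 3 libraries with it (adjusted p = 0.005). Gm8430 fell from 9.46, 8.74 and 9.04 to 4.41, 4.92 and 5.97, by 3.98 (adjusted p = 0.0041). Gm10288 is a processed pseudogene whose transcript is 99.8% identical to Rpl11, and Gm8430 one that is 99.8% identical to Rps27a. The parent genes, which were chosen after their values were seen, differed at day 4 by -0.20 (Rpl11) and -0.13 (Rps27a). Zfp968 rose by 1.07 (adjusted p = 0.0061) and is 100% identical over the aligned stretch to Zfp967. Gm49326 (1.29) and Gm22270 (1.12) also have copies at 96% and 96.9% identity, so their reads could be split between copies by the authors' counting.

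The remaining 4 genes are Snhg14, Brms1l, Gm19790 (0.94) and Gm21060 (0.86). Snhg14, the long host transcript of the imprinted Prader-Willi region, was at 5.52, 5.80 and 5.92 without doxycycline and 7.41, 6.03 and 7.59 with it. The groups did not overlap, although replicate 2 with doxycycline lay close to the controls, and the rise was 1.26 (adjusted p = 0.0042). Snhg14 overlaps Gm38393 on the same strand and Ube3a on the opposite strand, so reads of this region can be shared among these models. Brms1l, a subunit of the SIN3 deacetylase complex, was at 6.85, 6.84 and 6.69 without and 5.45, 6.62 and 4.48 with doxycycline. It fell by 1.28 (adjusted p = 0.0063), with the same replicate 2 closest to the controls. Gm19790, Gm22270, Gm49326 and Snhg14 are named because they are among the 9, and were chosen after their values were seen. The count of 9 became 1 without any of the 4 libraries named above, 29 without replicate 3 of the cells lacking doxycycline and 18 without replicate 2 of those with it.

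Among well-measured protein-coding genes, long transcripts led the rises of day 4. Ranbp2, which encodes a giant protein of the cytoplasmic pore filaments and has a transcript of 9608 nt, stood at 4.64, 4.67 and 4.98 without doxycycline and 5.74, 5.44 and 5.61 with it. All libraries with doxycycline were higher, and the rise was 0.84 (SE 0.14, adjusted p = 0.0015). Casp8ap2, a histone mRNA and apoptosis factor, rose by 0.77 (3.76, 3.86 and 4.13 against 4.81, 4.58 and 4.68, adjusted p = 0.00097). Phip and the kinetochore scaffold gene Knl1 both rose by 0.78 and Rc3h2 rose by 0.83. Brms1l (above) had the largest fall among protein-coding genes whose groups did not overlap. Slc2a8, a glucose transporter, was at 3.88, 3.60 and 3.73 without and 3.23, 3.30 and 3.25 with doxycycline and fell by 0.48 (adjusted p = 0.0025), and the cytokine gene Il17b fell by 0.55 (adjusted p = 0.0021).

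Set side by side, both days moved largely in opposite directions. An adjusted p below 0.05 was reached on both days by 1994 genes (12.1% of those tested), which are 48.7% of the day 0 genes and 46.1% of the day 4 genes. Of these, 1956 (98.1%) had opposite signs: 1876 fell at day 0 and rose at day 4, and 80 rose at day 0 and fell at day 4. Tested directly, the doxycycline effect of day 4 minus that of day 0 passed for 7322 genes, with 6500 higher (39.5%) and 822 lower (5%). With a median-of-ratios scaling the difference between the days passed for 5604 genes, 2803 higher and 2801 lower, and no gene passed on both days. The count of 1956 became 1, 1 and 0 without the same 3 day 0 libraries on which the day 0 count rested, and 1093, 936, 845 and 921 without the 4 day 4 libraries named above.

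Genes that moved the same way on both days were few: 37 were lower on both and 1, Nxf7, was higher (0.27 and 0.29). Ppan, a factor of the pre-60S particle, was at 6.70, 6.72 and 6.72 without and 6.57, 6.56 and 6.53 with doxycycline at day 0. Its day 4 levels were 5.93, 5.93 and 5.92 without and 5.77, 5.76 and 5.77 with doxycycline. The groups did not overlap on either day and Ppan fell by 0.16 on both (adjusted p = 0.024 and 0.0031), although after length and GC adjustment its day 0 difference was 0.01 and its day 4 difference -0.21. Noc4l, a small-subunit biogenesis factor, fell by 0.21 at day 0 and by 0.21 at day 4 (adjusted p = 0.025 and 0.0081). Utf1, a chromatin factor of pluripotent cells, fell by 0.16 and 0.17, and the mitochondrial carrier gene Ucp2 fell by 0.19 and 0.17.

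**Figure D2:**
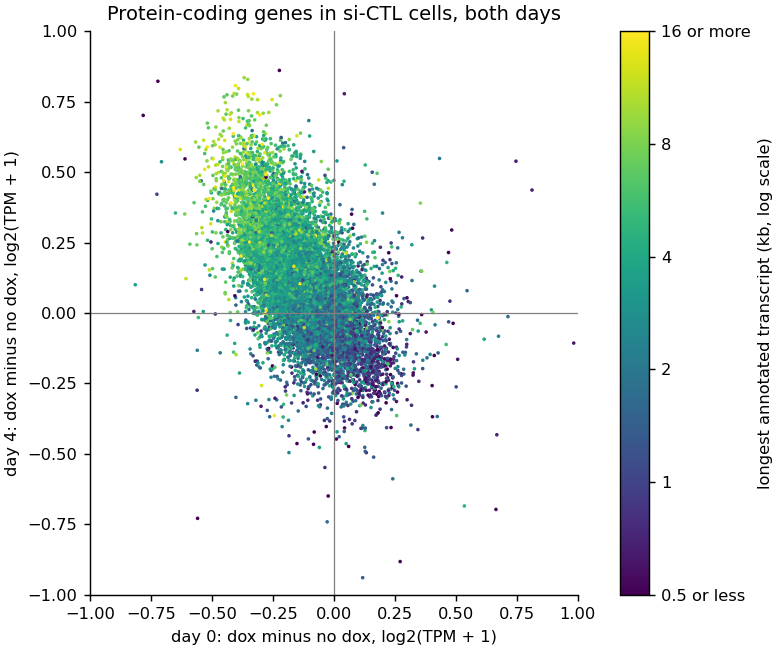
Log2 difference with against without doxycycline at day 0 (x axis) and day 4 (y axis) for 13569 protein-coding genes of si-CTL cells, coloured by the longest annotated transcript in kb on a log scale; 9 points lie outside the axes. Long transcripts lie at the upper left, lower at day 0 and higher at day 4, and short ones at the lower right.

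Transcript length ordered the differences on both days, in opposite directions. Over protein-coding genes whose longest transcript is under 1000 nt the median difference was 0.09 at day 0 and -0.14 at day 4. For genes of 2000 to 4000 nt it was -0.13 and 0.09, and for genes over 10000 nt it was -0.29 and 0.36. At day 4, 62.8% of genes over 10000 nt were higher at adjusted p below 0.05, against 25.2% of genes under 1000 nt that were lower. Across 13569 genes the Spearman correlation of transcript length with the difference was -0.57 at day 0 and 0.62 at day 4, and that of GC content was 0.06 and -0.38. Genes are not independent replicates, and these correlations are descriptions. The order of the length classes was kept with a median-of-ratios scaling, where the shortest and longest classes had medians of 0.23 and -0.17 at day 0 and -0.26 and 0.24 at day 4.

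The same contrast was visible library by library. For each gene, the deviation of a library from the mean of the 6 si-CTL libraries of its day was taken, and the median deviation of 650 genes under 1000 nt was subtracted from that of 1876 genes over 6000 nt. At day 0 the contrast was 0.37, 0.12 and 0.05 without doxycycline and -0.05, -0.19 and -0.31 with it. At day 4 it was -0.26, -0.26 and -0.15 without and 0.30, 0.10 and 0.27 with doxycycline. The groups did not overlap on either day, but at day 0 the lowest library without doxycycline (0.05) and the highest with it (-0.05) lay close to each other. An exact permutation test of 3 against 3 libraries cannot give a p below 0.1.

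**Figure D3:**
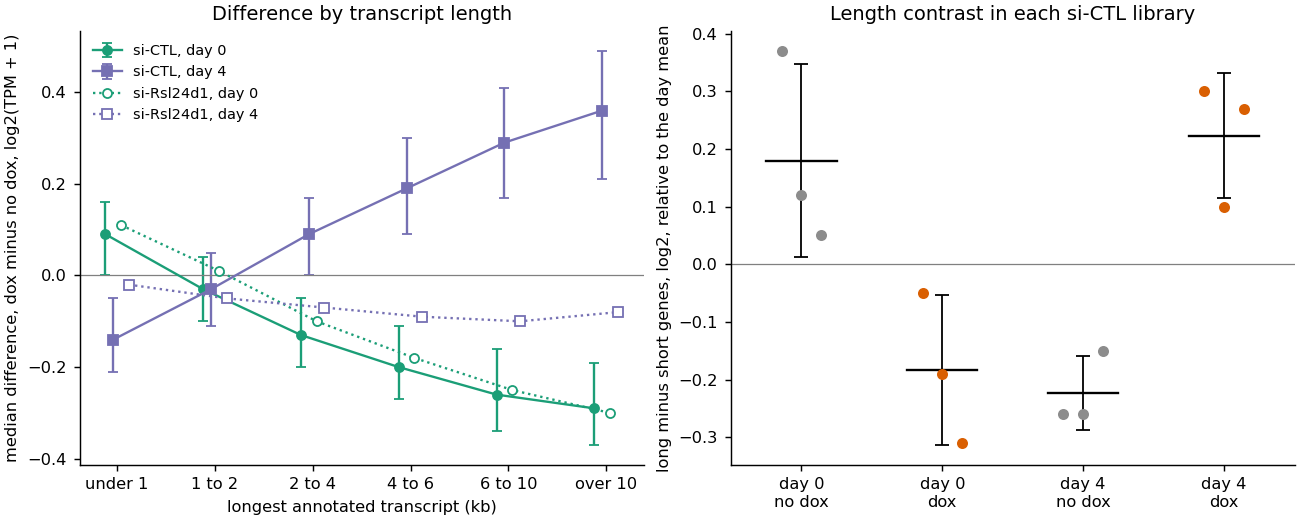
Left, median log2 difference with against without doxycycline by classes of the longest transcript of a gene (kb) at day 0 and day 4, with bars for the quartiles in si-CTL cells (filled) and open markers for si-Rsl24d1 cells; right, the contrast of long minus short genes in each si-CTL library with mean and SD of 3. The medians run from 0.09 to -0.29 at day 0 and from -0.14 to 0.36 at day 4 in si-CTL cells.

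Once the part of each library's values that follows transcript length and GC content was removed, no gene was higher (limma, 0%) and 2 were lower (0.0122%) at day 0, and 3302 genes had an unadjusted p below 0.05. At day 4, 927 genes remained higher (5.64%) and 831 lower (5.05%). Ranbp2, Casp8ap2 and the proliferation marker Mki67 then differed by 0.40, 0.40 and 0.37 at day 4 (adjusted p = 0.0017, 0.002 and 0.0037), against 0.84, 0.77 and 0.75 as deposited. Slc2a8 stood at -0.53 (adjusted p = 0.0021). Arhgap32 and Nup214 differed at day 0 by -0.36 and -0.32 and no longer passed (both adjusted p = 0.1).

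In si-CTL cells, short non-coding RNAs showed large differences, again in opposite directions on both days. These RNAs lack the long poly(A) tail of mRNAs, and most are made by RNA polymerase III or are spliceosomal RNAs. The Y RNAs Rny1 and Rny3, components of Ro ribonucleoproteins, are printed because they end in the run of T (U in the RNA) at which RNA polymerase III stops, shown in capitals, and not in a poly(A) tail. Their transcripts have 112 and 102 nt in the GENCODE vM21 annotation of GRCm38, at chr6:47788069-47788180 on the minus strand and chr6:47781624-47781725 on the plus strand.
Rny1: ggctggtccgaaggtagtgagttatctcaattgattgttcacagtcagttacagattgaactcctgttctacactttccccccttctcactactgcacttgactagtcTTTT
Rny3: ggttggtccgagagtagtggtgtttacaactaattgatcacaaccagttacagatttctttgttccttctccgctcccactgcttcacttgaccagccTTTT

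Rny1 was at log2 levels of 2.51, 0 and 2.08 without doxycycline and 3.84, 4.66 and 4.00 with it at day 0. At day 4 it was at 2.70, 3.47 and 5.24 without doxycycline and 2.55, 0 and 0 with it. Day 0 libraries with doxycycline were all higher (difference 2.64, adjusted p = 0.051) and day 4 libraries with doxycycline all lower (fall of 2.95, adjusted p = 0.031). Rny3 was at 3.64, 0 and 2.40 without and 4.23, 5.50 and 3.52 with doxycycline at day 0. At day 4 it was at 2.25, 3.89 and 5.47 without and listed at 0 in all 3 libraries with doxycycline. The day 0 groups overlapped (adjusted p = 0.081) and the day 4 groups did not (adjusted p = 0.01).

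Rn7sk, a list member singled out after its values were seen, is the RNA that holds the elongation factor P-TEFb inactive. It stood at 4.70, 3.79 and 3.74 without and 6.02, 7.14 and 6.15 with doxycycline at day 0 and rose by 2.36 (adjusted p = 0.025). At day 4 it stood at 4.57, 6.48 and 7.16 without and 4.47, 4.76 and 3.68 with doxycycline, a fall of 1.77 (adjusted p = 0.048). The day 4 groups overlapped, because replicate 1 without doxycycline was as low as those with it. Rn7s1, the RNA of the signal recognition particle, was 2.47 higher at day 0 (adjusted p = 0.05) and fell by 2.79 at day 4 (adjusted p = 0.028). Its day 4 levels were 4.96, 7.64 and 8.75 without and 4.52, 5.67 and 2.79 with doxycycline, with the same replicate 1 low. Rmrp, the RNA of the RNase MRP that cuts the precursor of ribosomal RNA, differed by 2.34 at day 0 (adjusted p = 0.053) and fell by 3.14 at day 4 (adjusted p = 0.014).

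Of the 12 short RNAs listed, 10 were tested. At day 0, 3 rose and none fell (median difference 2.35), against 1.22% higher over all tested genes. At day 4 none rose and 5 fell (median -1.91), against 4.24% lower over all tested genes. The 3 that passed at day 0 were Rn7sk and the minor spliceosome RNAs Rnu11 and Rnu12, the last named only because it is among these 3. Rnu11 and Rnu12 were listed at 0 in all 3 libraries without doxycycline and reached 2.44 to 3.00 and 1.92 to 2.41 with it. Terc, the telomerase RNA, differed by -0.02 and 0.42 and did not pass on either day. With a median-of-ratios scaling the medians were 2.50 and -2.03, and 0 and 5 of the 10 passed. The 5 falls of day 4 became 1 without replicate 2 or 3 of the cells lacking doxycycline or replicate 3 of those with it, 3 without replicate 1 of those with it, and 8 without replicate 1 of those lacking it.

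Rnu1a1 and n-R5s100, 1 spliceosomal and 1 ribosomal RNA outside that list, moved with it. Rnu1a1, a copy of the U1 spliceosomal RNA, stood at 6.69, 5.00 and 4.58 without and 8.03, 8.70 and 7.92 with doxycycline at day 0 and rose by 2.79 (adjusted p = 0.045). At day 4 it stood at 5.50, 7.62 and 9.54 without and 4.98, 6.20 and 3.39 with doxycycline and fell by 2.70 (adjusted p = 0.048). The groups did not overlap at day 0 and did at day 4. Rnu1a1 has 28 near-identical partners in the annotation, among which reads could be split. The annotated ribosomal RNA n-R5s100, chosen after its values were seen, differed by 3.04 at day 0 (adjusted p = 0.052) and fell by 3.35 at day 4 (adjusted p = 0.034). All annotated rRNA genes together took 0.42%, 0.19% and 0.15% of the TPM without doxycycline and 0.727%, 1.36% and 0.78% with it at day 0. At day 4 they took 0.0997%, 0.501% and 1.41% without and 0.0892%, 0.156% and 0.0515% with doxycycline. Among the 3 day 4 libraries without doxycycline alone the share thus ran from 0.0997% to 1.41%, and the part of this spread in the other differences was not tested. Annotated snRNA genes took 0.0604%, 0.0532% and 0.0437% without and 0.116%, 0.146% and 0.102% with doxycycline at day 0. At day 4 they took 0.0293%, 0.0736% and 0.223% without and 0.0363%, 0.0467% and 0.0246% with doxycycline, and the groups overlapped.

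**Figure D4:**
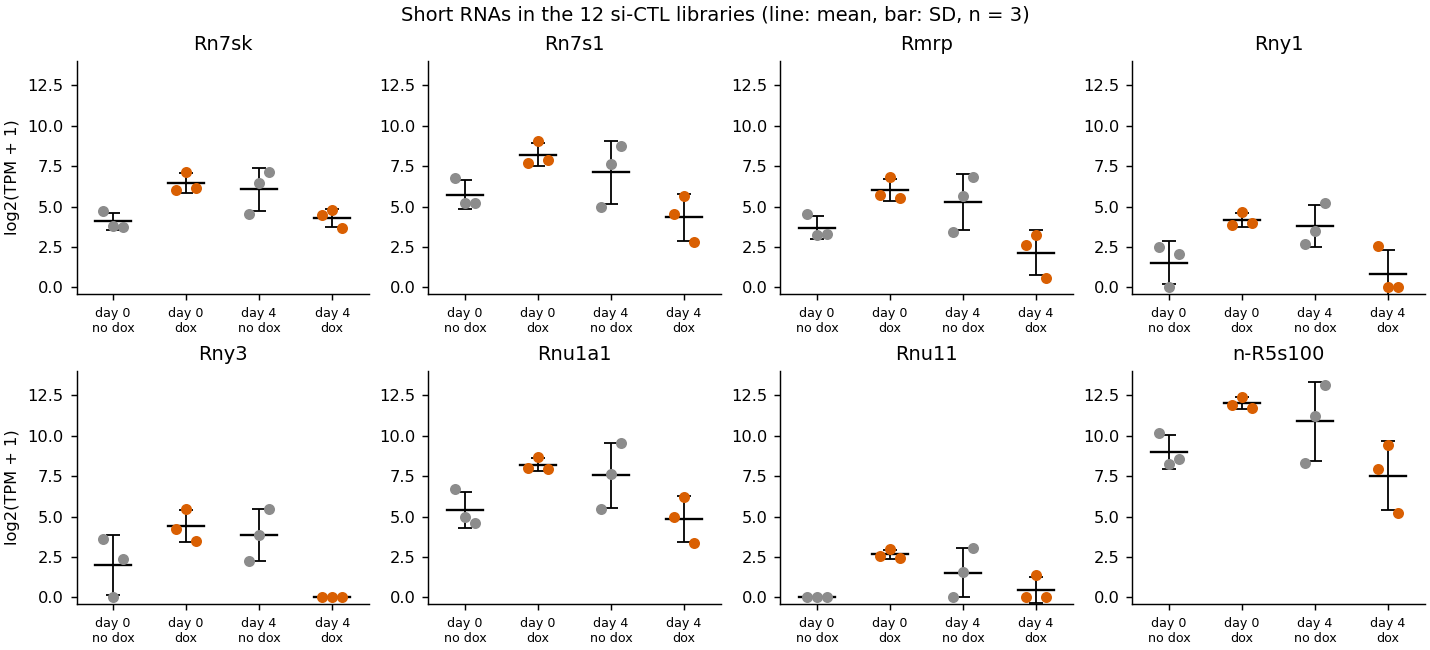
Log2(TPM + 1) of 8 short non-coding RNAs in each si-CTL library at day 0 and day 4, without (grey) and with doxycycline (orange). Group means with doxycycline are higher at day 0 and lower at day 4, although single libraries overlap in some panels, and replicate 1 of day 4 without doxycycline is low in most panels.

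The mRNAs of the mitochondrial genome encode 13 subunits of the respiratory chain and ATP synthase and are translated by the ribosome that doxycycline inhibits. At day 4, 6 of the 13 rose and none fell (median difference 0.38), against a median of 0.09 and 22.1% higher over all tested genes. At day 0, 3 fell and none rose (median -0.12), against a median of -0.12 and 23.7% lower over all tested genes. The day 0 median of the 13 was 0.03 with a median-of-ratios scaling. The day 4 count was 6 whichever single library was left out and 5 with the median-of-ratios scaling (median 0.25). Together these mRNAs took 6.38%, 6.76% and 6.56% of the TPM without doxycycline and 7.82%, 8.13% and 9.32% with it at day 4. At day 0 the shares were 7.25%, 7.45% and 6.83% without and 7.57%, 6.48% and 6.42% with doxycycline. The day 4 groups lay apart and the day 0 groups overlapped.

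mt-Cytb, the cytochrome b subunit of complex III, was at 11.80, 11.96 and 11.82 without and 12.36, 12.25 and 12.43 with doxycycline at day 4. No library overlapped with the other group and mt-Cytb rose by 0.49 (SE 0.07, adjusted p = 0.0011), whereas at day 0 the difference was -0.04 (adjusted p = 0.73). mt-Nd4, a complex I subunit, was at 11.19, 11.31 and 11.22 without and 11.93, 11.75 and 11.90 with doxycycline at day 4 and rose by 0.62 (adjusted p = 0.00097). Its day 0 difference was -0.22 (adjusted p = 0.075). mt-Co1, the catalytic core of cytochrome oxidase, was at 14.13, 14.17 and 14.17 without and 14.47, 14.50 and 14.64 with doxycycline at day 4. It rose by 0.38 (adjusted p = 0.0027) after a fall of 0.22 at day 0 (adjusted p = 0.044).

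mt-Nd5 and mt-Nd6 changed sign between the days. mt-Nd5 was at 10.27, 10.16 and 10.16 without and 9.92, 9.78 and 9.73 with doxycycline at day 0, a fall of 0.38 (adjusted p = 0.033). It rose by 0.48 at day 4 (adjusted p = 0.0085). mt-Nd6, the only mRNA encoded on the opposite strand, fell by 0.72 at day 0 (adjusted p = 0.025) and rose by 0.82 at day 4 (adjusted p = 0.0065). No library of either group overlapped with the other group for these genes on either day. mt-Nd6 lies partly across from mt-Nd5, and without knowing whether strand was used in counting the reads of both cannot be told apart there. mt-Atp8, a subunit of ATP synthase, completed the 6 with a rise of 0.30 at day 4 (adjusted p = 0.0059).

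Part of the mitochondrial reads was assigned to nuclear copies of mitochondrial DNA. Gm10925, for example, is 100% identical to mt-Atp6 over 678 nt, and the split between such copies and the genome differed between libraries for mt-Atp6, mt-Co2, mt-Co3, mt-Nd3 and mt-Nd4l. When each mRNA was summed with its copies, 8 of the 13 passed and were higher at day 4, and all 13 differences were positive (median 0.30). mt-Nd4l then rose by 0.71 (adjusted p = 0.0015) and mt-Atp6 by 0.24 (adjusted p = 0.0073), and mt-Co2, mt-Co3, mt-Nd1, mt-Nd2 and mt-Nd3 were 0.10 to 0.14 higher without passing. At day 0, 1 of the 13 summed mRNAs passed as higher and 3 as lower (median -0.04). With copies, the share of TPM at day 4 was 10.5%, 10.7% and 10.3% without and 11.9%, 12.6% and 13.3% with doxycycline. Among the mitochondrial rRNAs, mt-Rnr1 differed by 0.25 at day 0 and -0.31 at day 4, and mt-Rnr2 by 0.21 and 0.00, with no test passed. After adjustment for length and GC content, 4 of the 13 mRNAs as deposited passed at day 4, all higher.

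**Figure D5:**
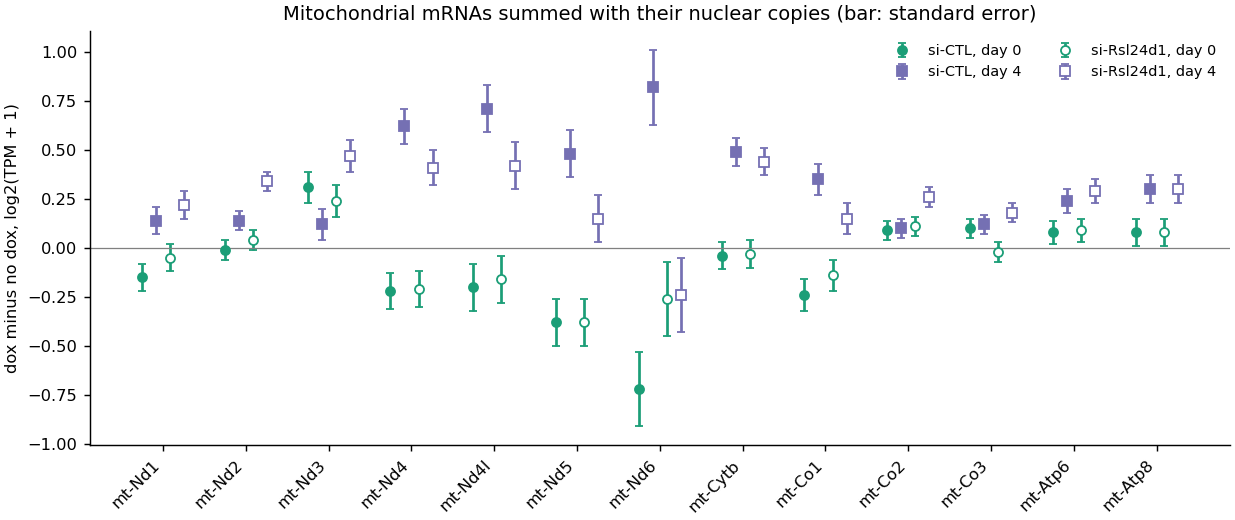
Log2 difference with against without doxycycline for the 13 mitochondrial mRNAs, each summed with its nuclear copies, at day 0 and day 4; filled points are si-CTL cells, open points si-Rsl24d1 cells, and bars the SE. At day 4 all 13 si-CTL points are above 0, and 8 of them passed, whereas at day 0 the points lie on both sides of 0.

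Nuclear genes of the respiratory chain, most of them short, moved the other way from the mitochondrial mRNAs at day 4. Of 36 complex I genes, 14 rose and none fell at day 0 (median 0.16), and 1 rose and 20 fell at day 4 (median -0.18). Of 38 genes of complexes II to V, 12 rose and 3 fell at day 0 (median 0.14) and 18 fell at day 4 (median -0.17). The medians over all tested genes were -0.12 and 0.09, with 1.22% higher at day 0 and 4.24% lower at day 4. With a median-of-ratios scaling the list medians kept their signs. Ndufc1, an accessory complex I subunit, was at 7.53, 7.57 and 7.81 without and 7.85, 7.88 and 8.06 with doxycycline at day 0 and at 8.19, 8.23 and 8.13 against 7.86, 8.00 and 7.91 at day 4. Both groups were apart on either day, with a rise of 0.30 (adjusted p = 0.024) and a fall of 0.26 (adjusted p = 0.015). Atp5e, the epsilon subunit of ATP synthase, rose by 0.24 and fell by 0.34 (adjusted p = 0.038 and 0.0054). Ndufs1, the iron-sulfur subunit of the electron input module, was the 1 that rose at day 4 (0.21, adjusted p = 0.011). The median longest transcript was 1026 nt for complex I and 1116 nt for complexes II to V, against 2950 nt for all tested genes. After length and GC adjustment, none passed at day 0 and 1 rose and 11 fell of the complex I genes at day 4. Without the 4 libraries named above, in turn, the falls of day 4 numbered 12, 10, 12 and 13 for complex I and 9, 8, 10 and 10 for complexes II to V.

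The mRNAs for proteins of the mitochondrial ribosome, to which the drug binds, were lower mainly at day 4. Of 49 large-subunit protein genes, 2 rose and 2 fell at day 0 (median 0.03) and 1 rose and 15 fell at day 4 (median -0.09). Of 29 small-subunit protein genes, 1 rose and 2 fell at day 0 (median 0.02) and 7 fell at day 4 (median -0.09). At day 4, 31 and 18 fell with a median-of-ratios scaling, against 2097 lower of all 16447 tested genes. As deposited, 23.7% of all tested genes were lower at day 0 and 4.24% at day 4. Mrps12, whose bacterial homologue lies at the decoding site, was at 6.04, 5.98 and 6.12 without and 5.65, 5.79 and 5.71 with doxycycline at day 4. It fell by 0.33 (adjusted p = 0.0012) and by 0.19 after length and GC adjustment (adjusted p = 0.0025). Mrpl52 fell by 0.28 and Mrpl43 by 0.24 (adjusted p = 0.0074 and 0.0013). The 15 falls of the large subunit became 6, 8, 10 and 5 without the 4 libraries named above, and the 7 of the small subunit became 4 without replicate 2 of the cells lacking doxycycline.

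Among 27 factors of mitochondrial gene expression, none rose and 5 fell at day 0 (median -0.10), and 6 rose and 2 fell at day 4 (median 0.09), shares near those over all tested genes (23.7% lower at day 0 and 22.1% higher at day 4). With a median-of-ratios scaling the medians were 0.05 and -0.04, and 2 rose and 5 fell at day 4, and after length and GC adjustment none rose and 3 fell. The 2 that fell as deposited encode elongation factors. Tsfm, elongation factor Ts, was at 5.24, 5.28 and 5.26 without and 5.02, 4.95 and 4.95 with doxycycline at day 4. The groups were well apart and Tsfm fell by 0.29 (SE 0.03, adjusted p = 0.00048), and by 0.23 after length and GC adjustment (adjusted p = 0.0024). Tufm, elongation factor Tu, fell by 0.14 (adjusted p = 0.012). Among the 6 that rose were the RNA-binding proteins Fastkd2 (0.33), Fastkd5 (0.31) and Lrpprc, which stabilises mitochondrial mRNAs (0.26) (adjusted p = 0.0072, 0.0077 and 0.035). Of 18 mitochondrial chaperone and protease genes, 9 fell at day 0 and 3 rose and 2 fell at day 4, or 1 and 6 at day 4 with that scaling. Yme1l1, an inner membrane protease, rose by 0.42 at day 4 (adjusted p = 0.0014) and differed by 0.06 after the adjustment (adjusted p = 0.14), whereas Clpp, the matrix protease, fell by 0.13 (adjusted p = 0.047). Rises at day 4 numbered 2 to 7 for the gene expression factors and 1 to 2 for the chaperones and proteases when single day 4 libraries were left out. The former were 2 and 3 without replicates 1 and 3 with doxycycline, 3 and 4 without replicates 3 and 1 lacking it, and the latter 1 without replicate 1 of either group or replicate 2 lacking it.

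The integrated stress response works through the transcription factor ATF4 and is known to follow disturbed mitochondrial translation. Of 28 genes of this response that were tested (30 were listed), none rose and 5 fell at day 0 (median -0.13), and 1 rose and 1 fell at day 4 (median 0.01), against 23.7% lower and 22.1% higher over all tested genes. The rise was Eprs, an aminoacyl-tRNA synthetase with a long transcript (0.54, adjusted p = 0.0061), and the fall was Eif4ebp1, an inhibitor of cap-dependent translation (0.20 lower, adjusted p = 0.01). Without replicate 2 of either day 4 group 3 of the 28 rose. At day 4 Atf4 differed by -0.09, Atf5 by -0.25, Ddit3 by -0.25, Trib3 by -0.10 and Chac1 by -0.10, and Asns, asparagine synthetase, by 0.17 (adjusted p = 0.069). None of these 6 passed on either day. Of 16 genes of serine, glycine, proline and one-carbon metabolism, 3 fell at day 0 and none passed at day 4 (3 did without replicate 2 with doxycycline). Psat1 and Phgdh, the serine synthesis enzymes, both differed by -0.13 at day 0, and by 0.17 and 0.07 at day 4. Of 15 endoplasmic reticulum stress genes, 6 fell at day 0 and 6 rose and 2 fell at day 4 (median 0.14), against 23.7% lower and 22.1% higher over all tested genes, and 4 rose and 4 fell at day 4 with a median-of-ratios scaling (median 0.01). The degradation factor Edem1 stood at -0.40 and 0.45 (adjusted p = 0.024 and 0.0048). Of 12 NRF2 target genes, 1 rose and 3 fell at day 0 and 1 rose and 1 fell at day 4.

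Metal-responsive genes changed in both directions. Tfrc, the transferrin receptor whose mRNA is stabilised when iron is low, was at 7.44, 7.21 and 7.13 without and 7.02, 6.87 and 6.80 with doxycycline at day 0. Its levels at day 4 were 5.83, 5.82 and 5.92 without and 6.33, 6.25 and 6.36 with doxycycline. The groups did not overlap on either day, with a fall of 0.36 and a rise of 0.46 (adjusted p = 0.025 and 0.003), and after length and GC adjustment the day 4 rise was 0.16 (adjusted p = 0.039). Ireb2, which encodes the iron regulatory protein IRP2, fell by 0.34 and rose by 0.51. Fth1, the ferritin heavy chain, was at 8.67, 8.58 and 8.54 without and 8.35, 8.40 and 8.34 with doxycycline at day 4 and fell by 0.23 (adjusted p = 0.0068). Its day 0 difference was 0.02, and after the adjustment its day 4 difference was -0.25 (adjusted p = 0.022). The metallothionein genes Mt1 and Mt2 rose by 0.25 and 0.23 at day 0 and fell by 0.27 and 0.22 at day 4. The zinc exporter gene Slc30a1 did the reverse, with a fall of 0.38 and a rise of 0.42. Of 20 genes of the hypoxia and iron depletion response, 1 rose and 9 fell at day 0 (median -0.20), against 23.7% lower over all tested genes. At day 4, 7 rose and none fell (median 0.08), against 22.1% higher over all tested genes. With a median-of-ratios scaling 2 rose and 3 fell at day 4 (median -0.05). The day 4 count of rises was 2 to 7 when single libraries were left out. It was 2 without replicate 2 of the cells lacking doxycycline, 3 without replicate 3 of either group and 4 without replicate 1 or 2 of those with it. The prolyl hydroxylase Egln3 and Ndrg1, both induced by hypoxia, fell by 0.33 at day 0 and differed by 0.00 and -0.05 at day 4.

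Sterol synthesis genes were among the lists with the largest medians. Of 21 genes, 11 fell and none rose at day 0 (median -0.22), and 11 rose and none fell at day 4 (median 0.26). This compared with 23.7% lower at day 0 and 22.1% higher at day 4 over all tested genes. Hmgcs1, the cytosolic synthase at the start of the pathway, was at 7.04, 6.81 and 6.89 without and 6.73, 6.61 and 6.45 with doxycycline at day 0. Its day 4 levels were 6.68, 6.52 and 6.74 without and 7.03, 7.02 and 7.01 with doxycycline. The groups lay apart on both days, with a fall of 0.32 (adjusted p = 0.028) and a rise of 0.37 (adjusted p = 0.0083). After length and GC adjustment 6 of the 21 still passed at day 4, all higher, among them Hmgcs1 (0.23). With a median-of-ratios scaling 7 were higher and 2 lower at day 4 (median 0.13) and none passed at day 0 (median -0.08). The day 4 count was 5 without replicate 2 of the cells lacking doxycycline and 7 without replicate 1 or 3 of those with it.

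Cytoplasmic ribosomal protein genes, short and highly expressed, rose at day 0 and fell at day 4. Of 51 large-subunit genes, 15 rose and 1 fell at day 0 (median 0.16), and none rose and 29 fell at day 4 (median -0.20). Of 32 small-subunit genes, 14 rose at day 0 (median 0.17) and 19 fell at day 4 (median -0.20), with none in the other direction. The shares over all tested genes were 1.22% higher at day 0 and 4.24% lower at day 4. Together both lists of ribosomal protein genes took 16.1%, 17.1% and 17.6% of the TPM without and 18.1%, 18.9% and 19.7% with doxycycline at day 0. At day 4 they took 22.1%, 22.1% and 21.3% without and 19.0%, 19.7% and 18.8% with doxycycline. The libraries with doxycycline were all higher at day 0 and all lower at day 4. Rplp2, an acidic protein of the ribosomal stalk, was at 10.99, 10.99 and 10.99 without and 10.60, 10.62 and 10.53 with doxycycline at day 4 and fell by 0.41 (SE 0.05, adjusted p = 0.00097). Rps10 rose by 0.19 (adjusted p = 0.042) and fell by 0.34 (adjusted p = 0.002). Rpl35a rose by 0.27 and fell by 0.26. After length and GC adjustment 9 of the 51 and 8 of the 32 were lower at day 4, Rplp2 by 0.29 (adjusted p = 0.0019). The day 4 falls numbered 11, 13, 9 and 8 of the 51, and 8, 7, 7 and 6 of the 32, without the 4 libraries named above, in turn.

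The direction of the factors that build ribosomes depended on the scaling. Of 45 large-subunit biogenesis genes, none rose and 18 fell at day 0 (median -0.10), and 18 rose and 2 fell at day 4 (median 0.10), while with a median-of-ratios scaling the medians were 0.05 and -0.04 and 6 rose and 13 fell at day 4. Of 33 small-subunit biogenesis genes, 15 fell at day 0 (median -0.17), and 14 rose and 2 fell at day 4 (median 0.13), or 7 and 5 with that scaling (median 0). As deposited, 23.7% of all tested genes were lower at day 0 and 22.1% higher at day 4. After length and GC adjustment, 7 rose and 7 fell of the large-subunit factors at day 4 and 2 rose and 5 fell of the small-subunit factors. Heatr1, a large scaffold of the early small-subunit particle, fell by 0.35 and rose by 0.38 (adjusted p = 0.027 and 0.011), and Mdn1, the giant AAA protein that strips factors from pre-60S particles, rose by 0.38 at day 4 (adjusted p = 0.025). Fbl, the methyltransferase fibrillarin, fell by 0.17 at day 4 (adjusted p = 0.0013). The 18 rises of day 4 became 11 without replicate 1 of the cells lacking doxycycline and 7 and 12 without replicates 1 and 3 of those with it, and the 14 of the small subunit became 9, 9 and 5 without replicates 1 and 2 lacking it and replicate 1 with it.

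Targets of p53, which is stabilised when ribosome production fails, were listed as 25 genes. Of these, 9 fell at day 0 (median -0.16) and 12 rose and 1 fell at day 4 (median 0.16). Over all tested genes 23.7% were lower at day 0 (median -0.12) and 22.1% were higher at day 4 (median 0.09). With a median-of-ratios scaling 6 of the listed targets rose and 6 fell at day 4 (median 0.03), and after length and GC adjustment 5 rose and 4 fell. Trp53inp1 was at 6.37, 6.45 and 6.62 without and 7.25, 7.08 and 7.18 with doxycycline at day 4 and rose by 0.69 (adjusted p = 0.0018), or by 0.30 after length and GC adjustment (adjusted p = 0.0077). Ccng1 rose by 0.40 (adjusted p = 0.0015). Mdm2, the ubiquitin ligase of p53, was at 6.41, 6.44 and 6.44 without and 6.63, 6.65 and 6.65 with doxycycline at day 4, a rise of 0.21 (adjusted p = 0.013), and it differed by -0.16 at day 0 (adjusted p = 0.051). Cdkn1a, the p21 inhibitor of cyclin-dependent kinases, was at 6.14, 6.05 and 6.21 without and 6.17, 6.12 and 6.22 with doxycycline at day 4. The groups overlapped and the difference was 0.03 (adjusted p = 0.66). Bax, the pro-apoptotic pore protein, fell by 0.18 at day 4 (adjusted p = 0.0041), and Trp53 itself fell by 0.19 at day 0 (adjusted p = 0.025). The 12 rises became 8 without replicate 2 of the cells lacking doxycycline and 7 and 8 without replicates 1 and 3 of those with it.

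Among pluripotency factors, Pou5f1 (OCT4) was at 10.10, 10.13 and 10.13 without and 10.08, 10.10 and 10.08 with doxycycline at day 0 (difference -0.03, adjusted p = 0.54). Pou5f1 was at 9.01, 9.10 and 8.96 without and 8.99, 8.82 and 8.87 with doxycycline at day 4, and fell by 0.13 (adjusted p = 0.019) with overlapping groups. Sox2 fell by 0.18 at day 0 (adjusted p = 0.028) and differed by 0.04 at day 4. Nanog fell by 0.12 at day 0 and rose by 0.11 at day 4 (adjusted p = 0.031 and 0.036), differences that were 0.03 and -0.02 with a median-of-ratios scaling. Sall4, a zinc finger factor, was at 6.13, 5.71 and 5.69 without and 5.49, 5.29 and 5.20 with doxycycline at day 0. The groups lay apart with a fall of 0.52 (adjusted p = 0.026), and the day 4 difference was 0.26 (adjusted p = 0.19). Of 8 core factors, 5 fell at day 0 (median -0.15) and 2 rose and 2 fell at day 4 (median 0.07), against 23.7% lower at day 0 and 22.1% higher at day 4 over all tested genes. Of 16 naive-state genes, 1 rose and 9 fell at day 0 (median -0.19) and 3 rose at day 4 (median 0.08). At day 4, 1 core factor rose and 2 fell with a median-of-ratios scaling, and 1 naive-state gene rose and 3 fell. Klf4, Esrrb and Tfcp2l1 fell by 0.30, 0.25 and 0.46 at day 0, and Zfp42 (REX1) differed by -0.08. Dppa5a, a short transcript, rose by 0.21 at day 0 (adjusted p = 0.035). At day 4, 0 to 2 core factors and 1 to 4 naive-state genes were higher when single libraries were left out, with no core factor higher without replicate 2 lacking doxycycline or replicate 1 or 3 with it, and 1 naive-state gene higher without replicate 1 of either group or replicate 3 with doxycycline.

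Of 24 RA target and metabolism genes, 3 fell at day 0 (median -0.04) and 4 rose and 1 fell at day 4 (median 0.10), against 22.1% higher over all tested genes. At day 4, 2 rose and 3 fell with a median-of-ratios scaling. Cyp26a1, which degrades RA, lay between 1.15 and 1.51 without and between 1.29 and 1.52 with doxycycline at day 4 and differed by -0.02 (adjusted p = 0.95). Rarb, an RA receptor gene and target, differed by 0.15 at day 4 (adjusted p = 0.24). Among 10 tested Hox genes and 13 tested genes of the 2-cell-like state none passed on either day. Of 15 neural genes, 6 fell at day 0 and 5 rose at day 4 (4 rose and 2 fell with that scaling), with Nes, an intermediate filament of neural progenitors, at -0.39 and 0.42, and 2 neural genes rose without replicate 1 of either day 4 group. The 4 rises among RA genes were 2 without any of the 4 libraries named above. The fibroblast or feeder markers Col1a1, Col1a2, Thy1 and Twist2 together summed to 76.1 to 87.5 TPM without and 102 to 115 TPM with doxycycline at day 4. Their sums at day 0 were 36.8 to 46.1 and 29.1 to 36.5 TPM. At day 4 Col1a1 rose by 0.54 and Col1a2 by 0.32 (adjusted p = 0.013 and 0.023). Thy1 differed by -0.13 (adjusted p = 0.5) and Twist2 was unchanged (adjusted p = 0.99), so the higher sum came from the collagen genes. In bulk RNA, a change in the number of cells of a type and a change in RNA per cell cannot be told apart.

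Of 32 cell cycle genes, 20 fell at day 0 (median -0.17) and 9 rose at day 4 (median 0.10), against 23.7% lower and 22.1% higher over all tested genes. The medians were -0.02 and -0.03 with a median-of-ratios scaling, and 5 rose and 7 fell at day 4, and after length and GC adjustment 4 rose and 1 fell. Mki67, with a transcript of 10061 nt, was at 5.32, 4.97 and 4.87 without and 4.77, 4.58 and 4.48 with doxycycline at day 0. Levels at day 4 were 4.65, 4.68 and 5.01 without and 5.65, 5.39 and 5.54 with doxycycline. The groups lay apart on both days, with a fall of 0.45 and a rise of 0.75 (adjusted p = 0.036 and 0.0023). Bub1, a spindle checkpoint kinase with a transcript of 3421 nt, fell by 0.22 and rose by 0.52 (adjusted p = 0.035 and 0.00097), and its day 4 rise was 0.33 after length and GC adjustment (adjusted p = 0.0018). Cdk1 differed by 0.05 and 0.01 and did not pass.

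The si-Rsl24d1 cells, also cultured with and without doxycycline, allowed the effect of the drug and the ectopic mRNA to be set beside that in si-CTL cells. In si-Rsl24d1 cells the ectopic mRNA also replaced a depleted one. Reversal of the knockdown and an effect of the drug therefore cannot be told apart in that arm, nor in the differences between the arms. At day 0, 992 genes were higher (6.03%) and 4085 lower (24.8%) with doxycycline in si-Rsl24d1 cells. At day 4, 294 were higher (1.79%) and 1438 lower (8.74%). Tested directly, the doxycycline effect differed between si-Rsl24d1 and si-CTL cells for 443 genes in the higher direction (2.69%) and 436 in the lower (2.65%) at day 0, and for 451 (2.74%) and 4272 genes (26%) at day 4. By transcript length, the day 0 medians of si-Rsl24d1 cells ran from 0.11 under 1000 nt to -0.30 over 10000 nt, as in si-CTL cells, whereas at day 4 they ran from -0.02 to -0.08. The contrast of long minus short genes, taken within the si-Rsl24d1 libraries of day 4, was -0.26, 0.21 and 0.18 without doxycycline. With it the contrast was -0.04, -0.02 and -0.07. Libraries of the group without doxycycline thus differed widely among themselves. The part of this spread in the differences between the arms was not tested.

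The rise of mitochondrial mRNAs at day 4 was measured in both arms. In si-Rsl24d1 cells 5 of the 13 mRNAs as deposited rose at day 4 (median 0.15), and 10 of the 13 did when each was summed with its nuclear copies. mt-Cytb rose by 0.44 (adjusted p = 0.00053) and mt-Nd4 by 0.41 (adjusted p = 0.0051), and the differences of these effects from those in si-CTL cells were -0.05 and -0.21 (adjusted p = 0.74 and 0.2). mt-Nd6 differed by -0.24 in si-Rsl24d1 cells at day 4 against 0.82 in si-CTL cells, and this difference of -1.06 passed (adjusted p = 0.011). For other genes the arms differed. Ranbp2, Mki67 and Hmgcs1 differed by -0.02, -0.07 and -0.48 in si-Rsl24d1 cells, and the difference of the effects was -0.86, -0.82 and -0.85 (adjusted p = 0.0062, 0.0093 and 0.00068). Tufm and Fth1 were lower in both arms at day 4, by 0.19 and 0.31 in si-Rsl24d1 cells (adjusted p = 0.0025 and 0.0012), and Tsfm by 0.11 (adjusted p = 0.04). Rn7s1 fell by 2.79 in si-CTL cells and was 1.13 higher in si-Rsl24d1 cells at day 4 (adjusted p = 0.48), with the difference of the effects at 3.92 (adjusted p = 0.028). Of the 10 short RNAs tested, none rose and 1 fell at day 0 in si-Rsl24d1 cells (median -0.24). Over all tested genes 6.03% were higher and 24.8% lower there. At day 4 none of the 10 passed in these cells (median 0.15).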

How the data were processed

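The authors aligned RNA-seq reads and deposited 1 table of log2(TPM + 1) per gene and library. The labels name STAR 2.7.8a, Salmon 1.4.0 and GRCh38, although the cells are murine, and the gene symbols matched the GENCODE vM21 annotation of GRCm38 for 52259 of 54242 genes. Read counts were not used here, so depth is unknown and no count model was applied. The 8 groups of 3 libraries were fitted together with limma 3.58.1 (R 4.3.3) with an intensity trend and Benjamini-Hochberg adjustment over 16447 genes with a mean of at least 0.5. The fit was tested on simulated data in which the spread of each gene was drawn independently. Shifts of single libraries shared by many genes, such as those with transcript length, were not simulated, so that test does not cover them.

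Members and gene lists were chosen with earlier results of these data known. Named genes were the RSL24D1 partners, stress, pluripotency and mitochondrial genes of a written list, the 12 largest rises and falls per day among protein-coding genes whose groups did not overlap (3 for other types), the 5 largest differences between days per direction, 12 genes that moved alike on both days, and up to 4 genes per direction of each list.

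Alternatives were other added constants (0.1 or 2 in place of 1), filters (none or 1.5), scalings, a replicate block, the si-CTL groups alone, no intensity trend and leaving out each library. Adjustment for transcript length, or for length and GC content, by medians over 50 and 20 bins, and sums with nuclear copies of mitochondrial genes were added after seeing the data. Length and GC medians were subtracted in turn, not jointly. The longest annotated transcript stood for each gene, and it need not be the one expressed. Replicate numbers did not pair the libraries. Results for some genes of the lists are not reported here.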

Additional observations from a re-analysis of the deposited data

Results flagged for a closer look

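The effect of doxycycline in si-CTL cells differed between day 0 and day 4, by a test of the difference itself at adjusted p below 0.05 (limma), for 7322 genes. The genes with the largest such differences (day 4 effect minus day 0 effect, log2 scale) were lower for Gm10288 (-9.49), Gm24414 (-6.79), Gm25108 (-6.79), Gm25890 (-6.65) and Gm23472 (-6.41). They were higher for Gm10222 (10.61), Gm49286 (5.38), Gm27506 (5.27), Mir7-1 (3.98) and Rpl14-ps1 (3.64). These are pseudogenes and short non-coding RNAs that are listed at 0 in several libraries, and the sizes depend on the 1 added to the TPM. Gm10288, Gm10222, Gm27506, Gm25890, Gm24414, Gm23472 and Rpl14-ps1 have near-identical copies elsewhere in the annotation. Gm49286 is 100% identical over 85 nt to AW549877, which it overlaps on the same strand.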

How the results depend on the processing

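Genes past both thresholds numbered 0 at day 0 under the study's rule, 4093 with adjusted p below 0.05 alone, 2 with adjusted p below 0.01 alone, and 0 to 1 when single libraries were left out. At day 4 the 9 became 34 with 0.1 added to the TPM, 0 with no filter (limma, 7467 genes at an unadjusted p below 0.05), 15 with TPM rescaled to nuclear protein-coding genes, 1 with length and GC adjustment, and 1 to 29 when single libraries were left out; 4327 passed adjusted p below 0.05 alone and 1677 passed 0.01 alone. The 4093 genes of day 0 became 33 with no filter, 0 with a median-of-ratios scaling, 1132 with TPM rescaled to nuclear protein-coding genes, 2 with length adjustment, 2 with length and GC adjustment, and 0 to 5153 when single libraries were left out. The 4327 genes of day 4 became 2255, 4143, 4601, 2431 and 1758 in the same order, and 2077 to 4504; 55.2% and 52.7% were higher after the length adjustments. The 7322 genes that differed between the days became 3347 (53.5% higher) and 3160 (54.1% higher) after the length adjustments.

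The 1956 genes of opposite sign became 4 of 7 with no filter, 0 with a median-of-ratios scaling, 532 with TPM rescaled to nuclear protein-coding genes, 1 with either length adjustment, and 0 to 2478 when single libraries were left out. The median of all genes at day 4 was -0.013 with a median-of-ratios scaling and -0.007 with length adjustment. Rsl24d1 at day 4 was 0.13 with the median-of-ratios scaling and 0.22 to 0.29 when single libraries were left out. Signs turned for Eif6 at day 0 (0.02), Nanog at day 0 (0.03) and day 4 (-0.02) with a median-of-ratios scaling, for Gtpbp4 at day 4 with length (-0.06) and length and GC adjustment (-0.16), and for Ppan at day 0 with the same adjustments (0 and 0.01). The cause was not tested. Of 7036 alternatives for 294 gene-level results, 6077 kept direction and side of the threshold, 874 lost it, 78 gained it and 7 reversed.

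Deviations of libraries with the same number had a mean correlation of -0.004 (18 pairs, against 0.002 for 36 other pairs), so the numbers were not used to pair. With the replicate number as a block, 2912 genes passed at day 0, 3838 at day 4, 7055 differed between the days and 1174 had opposite signs. Depth is unknown, and values at 0 cannot be given a limit.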

Other observations

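Over all tested genes, 23.7% were lower at day 0, and 22.1% were higher and 4.24% lower at day 4. With a median-of-ratios scaling, 2046 of 16447 were higher and 2097 lower at day 4. Of 18 FGF and ERK feedback genes, 11 fell at day 0 (median -0.25) and 3 rose at day 4 (median 0.12), and with a median-of-ratios scaling the medians were -0.11 and 0.02, and 3 rose and 1 fell at day 4. The feedback inhibitor gene Spry4 and the transcription factor gene Etv5 fell by 0.40 and 0.38 at day 0 and were 0.23 and 0.21 higher at day 4 (limma, adjusted p = 0.1 and 0.15). Without replicate 1 with doxycycline at day 4, 1 of the 18 rose. Of 22 genes of glycolysis and glucose transport, 10 fell at day 0 (median -0.18) and 2 rose at day 4 (median 0.01, and -0.12 with that scaling, where 7 were lower), and none rose without replicate 2 of either day 4 group or replicate 3 with doxycycline. The glucose transporter gene Slc2a3 fell by 0.27 and rose by 0.19 (adjusted p = 0.024 and 0.037). Of 25 imprinted genes, 7 fell at day 0 and 8 rose and 1 fell at day 4, or 7 and 3 at day 4 with that scaling, with Peg10 at -0.52 and 0.66 and Peg3 at -0.35 and 0.57, and 5 rose at day 4 without replicate 2 lacking doxycycline or replicate 1 or 3 with it. Of 18 snoRNA host genes, whose spliced transcripts are often short, 1 rose at day 0 and 2 rose and 6 fell at day 4 (median -0.18), while 1 rose and 13 fell with that scaling (median -0.31). The falls numbered 1 to 7 when single day 4 libraries were left out, with 2 without replicate 2 lacking doxycycline or replicate 1 with it and 1 without replicate 3 with it.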
